A study of Mus musculus with 4 samples.

Results

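Metallothioneins are small cysteine-rich proteins that bind zinc and copper, and this account follows the genes that buffer and move zinc in blood cells of mice with acute pancreatitis. Of the 5 genes named for it (Mt1, Mt2A, Slc30a1, Slc39a14 and Mtf1), 4 were matched by name among the 16152 genes of the count matrices. Mtf1, the zinc-sensing transcription factor that switches on the metallothionein genes, is not analysed here. The genes were picked by name, with earlier results of these data known, so their levels are given as a description with no test.

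Inside cells in general, free zinc is held low by metallothioneins in the cytosol and by transporters in the membranes. SLC30A1 (ZnT1) sits in the plasma membrane and carries zinc out of the cell, and SLC39A14 (ZIP14) carries zinc, iron and manganese into it. When zinc rises, MTF1 binds metal response elements in the promoters of Mt1, Mt2 and Slc30a1. Glucocorticoids and cytokines of the acute phase raise metallothionein transcripts as well, in liver above all and in leukocytes.

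The study took peripheral blood mononuclear cells from wild-type C57BL/6J mice aged 6 to 8 weeks and made 1 single-cell library per time with the 10x Genomics 5' kit. The groups were a control taken at 0 h and acute pancreatitis (AP) at 12 h, 24 h and 96 h after the first of 7 intraperitoneal injections of cerulein, a hormone analogue that overstimulates the exocrine pancreas. The labels do not say whether control mice were injected or how many mice each library holds. They give 96 h for the last library, whereas the text on the series gives 168 h. Each group is 1 library, so no difference between groups has a replicate check, and every interval here is a 95% interval for counting error only. UMIs (unique molecular identifiers) are not independent of the library or of the cell they came from. Intervals of levels and ratios therefore leave out the spread between cells, and intervals that do not overlap say nothing about that spread.

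The deposited matrices held 14569, 11663, 12588 and 14560 cells at 0, 12, 24 and 96 h, with median depths of 3571, 4038, 4862 and 4728 UMIs per cell. Their gene names include 28 that start with RT1-, as rat histocompatibility genes do, and 0 that start with H2-, although the labels give mice. The control barcode list has 4340 entries for 14569 cells, and the 24 h list is identical to the 12 h list, so barcodes were not used to identify cells, and 0 cells had the same counts in 2 libraries. Cells were put into classes by the number of distinct markers they held (T, B, NK, monocyte and neutrophil), and each class is called "like" its type. Monocyte-like cells were split by 5 classical monocyte markers, Fn1, Vcan, F13a1 and Cd14 among them: cells with at least 3 are called classical-high here and cells with at most 1 classical-low. Fn1, Vcan and Cd14 were among the 10 leading genes of classical-high cells, Eno3 among those of classical-low cells, Cd3e among those of T-like, Ms4a1 among those of B-like and Ncr1 among those of NK-like cells. All of these but Eno3 were markers used to define the classes, so their place among the leading genes follows from the gates.

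The promoters of Mt1 and Slc30a1 are shown because both genes are textbook targets of MTF1, and the levels of both transcripts are given below. Both are mouse sequences from RefSeq (GRCm38.p6, plus strand, 250 bases before the annotated start to 50 after). Capitals mark the core of the metal response element, searched as TGCACNC and TGCGCNC on both strands.
Mt1, chr8:94178839-94179138: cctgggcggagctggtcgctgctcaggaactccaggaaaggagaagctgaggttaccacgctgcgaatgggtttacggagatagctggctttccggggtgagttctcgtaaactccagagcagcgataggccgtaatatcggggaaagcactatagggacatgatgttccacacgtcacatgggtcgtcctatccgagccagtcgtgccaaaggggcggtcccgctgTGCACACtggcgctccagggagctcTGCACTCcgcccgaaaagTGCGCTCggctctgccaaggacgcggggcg
Slc30a1, chr1:191906531-191906830: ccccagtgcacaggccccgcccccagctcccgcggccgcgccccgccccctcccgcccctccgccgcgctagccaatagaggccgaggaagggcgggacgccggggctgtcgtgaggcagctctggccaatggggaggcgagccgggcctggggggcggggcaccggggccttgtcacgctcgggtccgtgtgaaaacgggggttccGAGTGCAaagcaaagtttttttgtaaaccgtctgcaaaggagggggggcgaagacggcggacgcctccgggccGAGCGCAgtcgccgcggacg
The Mt1 window holds 3 matches, all on the strand shown. The first of them starts 23 bases before the annotated start, and the others lie after it. The Slc30a1 window holds 2, both on the opposite strand, the first shown lying before the annotated start and the second after it. Of 32851 windows of this length, 25.7% hold at least 1 match, 7.11% at least 2 and 1.97% at least 3. A match is a run of letters and not a measured binding site. Since gene names in the matrices follow rat usage in part, it was not tested whether these mouse windows are the promoters of the cells measured. Of the 4 genes, 2 were matched to the promoter table by name.

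Among the 5 classes with enough cells in every library, Mt1 was highest in classical-high monocyte-like cells in all 4 libraries. In those cells it stood at 217 CPM (UMIs scaled to a total of 1000000 per class and library) at 0 h, 418 at 12 h, 798 at 24 h and 263 at 96 h. At 0 h the interval of the classical-high level (201 to 234 CPM) overlaps that of NK-like cells (173 to 211 CPM). Set against control, the 24 h level was 3.68 times as high (3.40 to 3.98), the 12 h level 1.93 times (1.77 to 2.09) and the 96 h level 1.21 times (1.11 to 1.33). The 4 intervals of the level do not overlap, and the order of the libraries was 24 h, 12 h, 96 h and control. Between times, the 24 h level was 1.91 times that at 12 h (1.84 to 1.98), and the 96 h level was 0.33 times that at 24 h (0.313 to 0.348).

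Classical-low monocyte-like cells were the larger monocyte class in all 4 libraries, and their leading genes include Eno3, a marker of nonclassical (patrolling) monocytes. Their Mt1 level was 149 CPM at 0 h, 146 at 12 h, 250 at 24 h and 130 at 96 h. Here the 24 h library stood above control, at 1.68 times (1.58 to 1.80), while the 12 h library was at 0.984 times (0.912 to 1.06) and the 96 h library at 0.874 times (0.797 to 0.958). A stricter cell filter (at least 1000 genes, at most 5% mitochondrial UMIs), which left 480 control cells of all classes, moved the 12 h and 96 h ratios above 1, with ratios of 1.27, 1.93 and 1.04 at 12, 24 and 96 h. With stricter gates the 24 h ratio was 1.49 (1 marker fewer of other lineages) or 1.75 (no marker of another lineage). In the main filter the classical-high level was 1.46 times the classical-low level in the control (1.33 to 1.60), 2.86 times at 12 h (2.68 to 3.05), 3.19 times at 24 h (3.06 to 3.33) and 2.03 times at 96 h (1.85 to 2.23).

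Among lymphocytes, T-like cells showed the widest range of Mt1. Their level was 76.4 CPM at 0 h, 140 at 12 h, 208 at 24 h and 98.9 at 96 h, and the ratios to control were 1.83 (1.70 to 1.98), 2.72 (2.55 to 2.91) and 1.29 (1.21 to 1.38) in that order of time. The median gene of T-like cells stood at a log2 ratio of -0.11 at 24 h, and with median-of-ratios scaling the Mt1 ratio was 2.97. B-like cells had 76.5 CPM at 0 h, 97.4 at 12 h, 159 at 24 h and 72.0 at 96 h, and the 24 h level was 2.07 times control (1.90 to 2.26). NK-like cells had 192 CPM in the control, which was 2.50 times the B-like level of that library (2.22 to 2.82), and 192, 260 and 148 CPM at 12, 24 and 96 h. Their 24 h level was 1.36 times control (1.20 to 1.53) and their 96 h level 0.775 times (0.680 to 0.884). In every one of the 5 classes the highest of the 4 levels was that of the 24 h library.

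The order of the classes by Mt1 was classical-high, NK-like, classical-low, T-like and B-like at 24 h. In that order the levels of NK-like and classical-low cells at 24 h have intervals that overlap (242 to 278 and 240 to 261 CPM). At 0 h the T-like and B-like levels also overlap, with a ratio of 0.998 (0.912 to 1.09). Neutrophil-like cells were too few to compare with control, with 12 and 9 cells at 0 and 96 h. Their Mt1 level was 72.2 CPM at 12 h (31.2 to 142; 53 cells) and 227 CPM at 24 h (173 to 293; 116 cells), so the classical-high level was 5.79 times (2.94 to 13.4) and 3.51 times (2.72 to 4.61) the neutrophil-like level in those libraries.

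**Figure D1:**
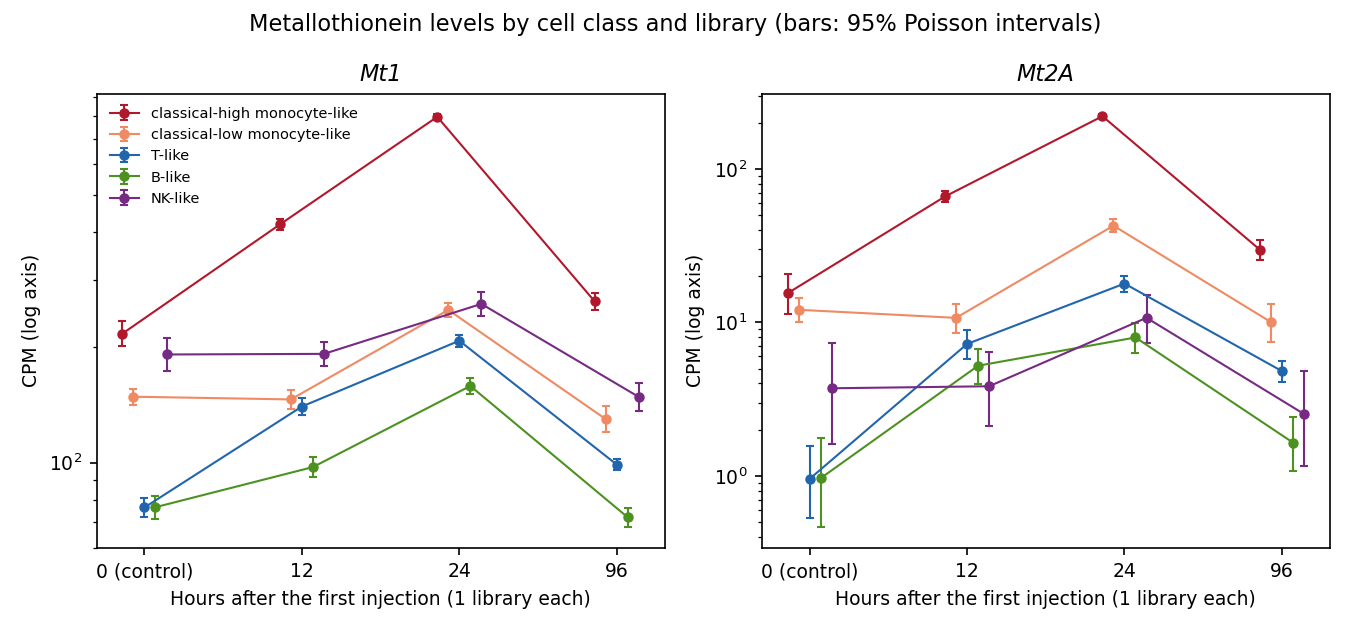
Levels of Mt1 (left) and Mt2A (right) in CPM on log axes, against hours after the first injection; each point is the summed UMIs of 1 cell class in 1 library, with its 95% Poisson interval. Both genes peak in the 24 h library in all 5 classes, and classical-high monocyte-like cells lie on top, at 798 CPM of Mt1 and 221 CPM of Mt2A.

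Mt2A, which encodes the second of the 2 widely expressed metallothioneins (the mouse gene is usually written Mt2), was the rarer transcript and had the larger ratios. In classical-high monocyte-like cells it stood at 15.5 CPM at 0 h, 66.2 at 12 h, 221 at 24 h and 29.8 at 96 h, from 48, 622, 4127 and 176 UMIs. The ratios to control were 4.27 at 12 h (3.18 to 5.86), 14.3 at 24 h (10.7 to 19.4) and 1.92 at 96 h (1.39 to 2.70). All 3 AP libraries lay above control and their intervals do not overlap it.

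In classical-low cells Mt2A was 12.1 CPM at 0 h, 10.7 at 12 h, 42.7 at 24 h and 10.1 at 96 h. Of these libraries the one at 24 h stood apart, at 3.54 times control (2.90 to 4.34). Under the stricter cell filter the ratios were 2.19, 5.71 and 2.12 at 12, 24 and 96 h, so that the 12 h and 96 h libraries then lay above control too. Stricter gates lowered the 24 h ratio, to 2.77 with 1 marker fewer of other lineages and to 2.45 with none. In the control the classical-high level was 1.28 times the classical-low level, with an interval that includes 1 (0.901 to 1.80), while it was 6.18 times at 12 h (4.94 to 7.82), 5.17 times at 24 h (4.67 to 5.73) and 2.96 times at 96 h (2.15 to 4.14). The interval excludes 1 in all 3 AP libraries.

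T-like cells had 15 UMIs of Mt2A in 2939 control cells, or 0.954 CPM, and 7.23, 17.9 and 4.81 CPM at 12, 24 and 96 h. The 24 h ratio was 18.8 (11.2 to 34.0), and its width reflects those 15 UMIs. The 12 h and 96 h ratios were 7.58 (4.35 to 14.1) and 5.04 (2.97 to 9.23), from levels under 10 CPM. With predicted doublets kept, the ratios were 4.46, 10.4 and 2.73 at 12, 24 and 96 h. B-like cells had 10 UMIs in the control (0.964 CPM) and 5.22, 7.97 and 1.65 CPM at 12, 24 and 96 h. These B-like levels stayed under the minimum of 10 CPM set for a comparison in every library, and at 24 h only 2.35% of B-like cells had a Mt2A UMI. The B-like ratio at 24 h was 8.27 (4.26 to 17.9), from 76 UMIs and those 10. NK-like cells had 8 control UMIs (3.72 CPM) and 10.7 CPM at 24 h, a ratio of 2.88 (1.30 to 7.22), which was 1.24 after thinning every cell to 2000 UMIs. Neutrophil-like cells had 0 UMIs of Mt2A in 53 cells at 12 h, which allows up to 27.1 CPM if the limit is set at 3 UMIs, and 4 UMIs in 116 cells at 24 h.

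A member was counted as measured in a class where both libraries together held at least 20 of its UMIs and 1 of them reached 10 CPM, which a gene can pass through its high library alone. At 12 h, 9 of the 20 pairs of a gene and a class were measured and 1 was at least 2-fold higher than control (Mt2A in classical-high cells), where 2.59% of all gene and class pairs were. At 24 h, 11 were measured and 7 were at least 2-fold higher, where 1.43% of all pairs were. Those 7 were Mt1 in classical-high, T-like and B-like cells and Mt2A in classical-high, classical-low, T-like and NK-like cells, the last of which is lost after thinning (1.24 times). At 96 h, 9 were measured and 0 were past 2-fold, where 0.551% of all pairs were higher. These counts leave out Mt2A where it lay under 10 CPM, as in T-like cells at 96 h, at 5.04 times control (2.97 to 9.23). None of the measured pairs was 2-fold lower in the main setting, against 1.52%, 1.42% and 0.443% of all pairs at 12, 24 and 96 h. Slc30a1 in classical-high cells at 12 h was so under some alternatives, given below. Nothing is read from these shares, since the genes were chosen with their values known.

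**Figure D2:**
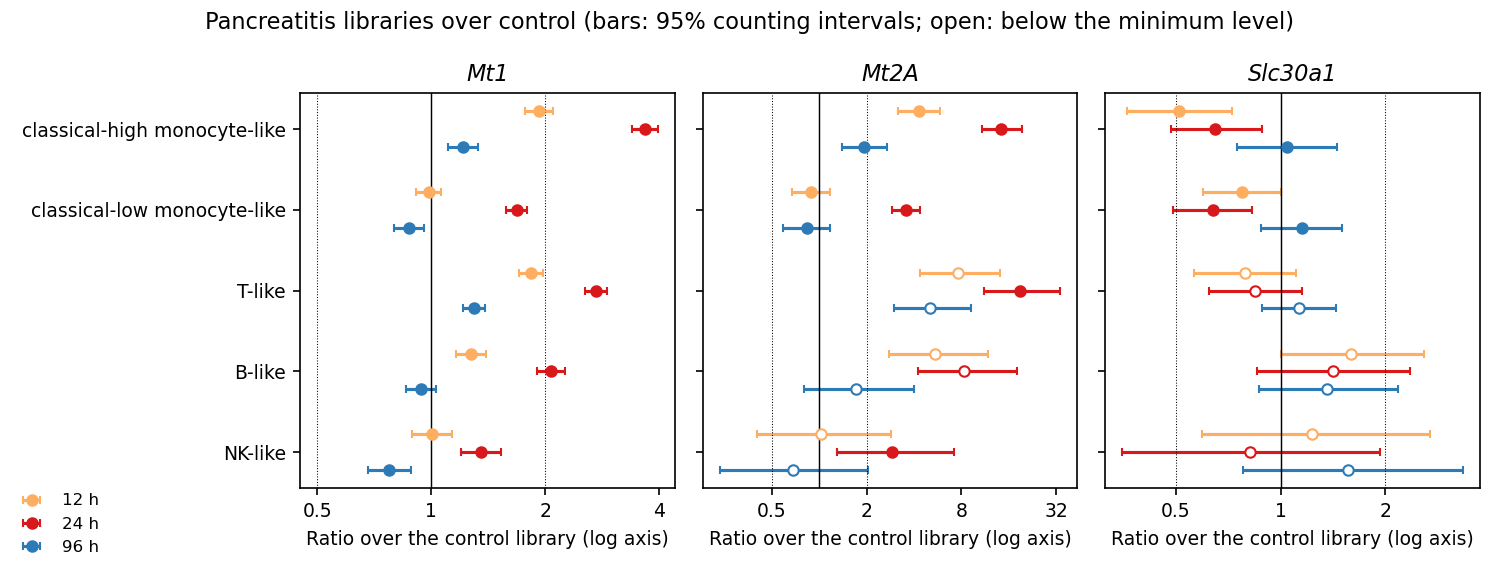
Ratio of each AP library to control for Mt1, Mt2A and Slc30a1 in 5 cell classes on log axes, with 95% counting intervals; dotted lines mark 2-fold either way and open points are pairs under 10 CPM in both libraries. The 24 h points of Mt1 and Mt2A lie right of 1 in every class, and the 12 h and 24 h points of Slc30a1 lie left of 1 in both monocyte classes under the main cell filter, as the 24 h classical-low point does not under the stricter one (1.18).

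The balance of the 2 metallothioneins differed between classes and times. For every 100 Mt1 UMIs, classical-high cells held 7.13 Mt2A UMIs at 0 h (5.21 to 9.57), 15.8 at 12 h (14.5 to 17.2), 27.7 at 24 h (26.7 to 28.6) and 11.3 at 96 h (9.62 to 13.2). Classical-low cells held 8.13, 7.32, 17.1 and 7.74 at those times. T-like cells held 1.25 at 0 h (0.697 to 2.07), 5.16 at 12 h, 8.61 at 24 h (7.57 to 9.75) and 4.87 at 96 h. In NK-like cells the number was 1.94 at 0 h and 4.13 at 24 h (2.82 to 5.84). Mt1 and Mt2A are close paralogs, and Mt1m is another, so the counting could have split reads between them and these numbers carry that uncertainty.

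Mt1 was spread over many cells of a class. In classical-high cells the share with at least 1 Mt1 UMI was 66.7% at 0 h, 78.2% at 12 h, 86.7% at 24 h and 73.2% at 96 h. Depth differs between these sets, with medians of 7804, 11356, 11318 and 9109 UMIs per cell, so every cell was also thinned to 2000 UMIs. After thinning the shares were 27.8% (23.4 to 32.6), 39.2% (35.8 to 42.7), 56.8% (54.4 to 59.2) and 32.1% (28.4 to 35.9), and thinning left out 0, 0, 1 and 1 shallower cells. B-like cells, with the lowest share of the 5 classes, had 12.8%, 14.9%, 23.5% and 12.4% after thinning at 0, 12, 24 and 96 h (18.4%, 22.4%, 33.6% and 20.4% before), at median depths of 2798, 2939, 3040 and 3306 UMIs. Mt2A was found after thinning in 2.63%, 8.76%, 24.5% and 4.60% of classical-high cells and in at most 1.40% of B-like cells of any library.

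A tail of cells with much Mt1 was seen as well. Thinned classical-high cells with at least 5 Mt1 UMIs made up 0.525% at 0 h and 9.74% at 24 h (8.35 to 11.3), with 24 of 799 cells at 12 h and 8 of 630 at 96 h. Before thinning, the 10% of classical-high cells richest in Mt1 held 45.3%, 53.6%, 39.0% and 44.9% of that class's Mt1 UMIs at 0, 12, 24 and 96 h. Depth per cell was not evened out in these shares. The highest classical-high cell held 125 Mt1 UMIs before thinning and came from the 12 h library. The 2 transcripts were also found in the same cells. At 24 h, 86.1% of the 402 thinned classical-high cells with Mt2A also had Mt1, and 47.3% of those without Mt2A had it.

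**Figure D3:**
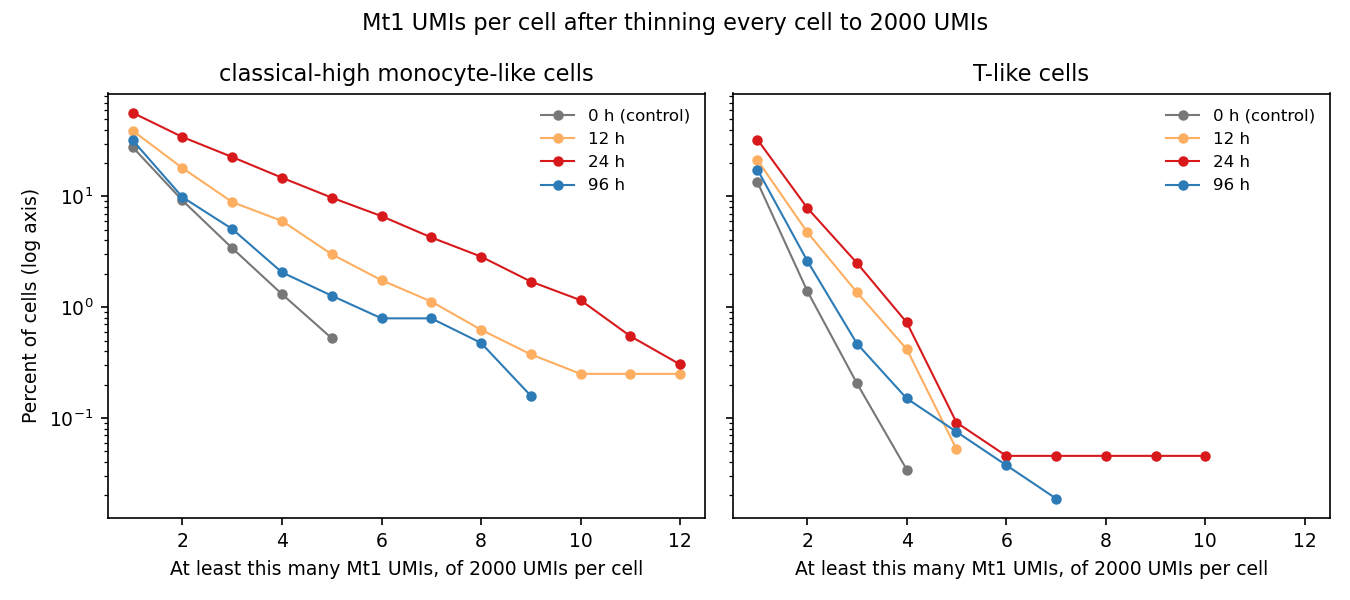
Percent of cells (log axis) with at least the number of Mt1 UMIs on the x axis, after thinning every cell to 2000 UMIs, for classical-high monocyte-like cells (left) and T-like cells (right) in the 4 libraries. In both panels the 24 h curve starts highest, at 56.8% and 32.6% of cells with at least 1 UMI, and the control curve lowest, at 27.8% and 13.5%.

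The split of the monocyte-like cells is a range and not a type, and 342, 564, 746 and 194 cells with exactly 2 classical markers lie between the classes at 0, 12, 24 and 96 h. Across the number of markers, the control held Mt1 at 140 CPM in cells with none and 223 CPM in cells with 4. At 12 h the levels with 0, 1, 2, 3 and 4 markers were 132, 156, 194, 331 and 440 CPM. At 24 h they were 236, 259, 232, 542 and 1008 CPM, so cells with up to 2 markers lay between 232 and 259 CPM and the step came at 3. At 96 h they were 120, 140, 151, 236 and 278 CPM. Mt2A at 24 h stood at 42.3, 42.9, 42.7, 160 and 266 CPM. Cells with all 5 markers numbered under 50 in each library and are left out of this order. Cells with more markers were also deeper, with medians of 4084 UMIs without any and 12140 UMIs with 4 in the 24 h library, and the part of depth in this order was not tested.

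**Figure D4:**
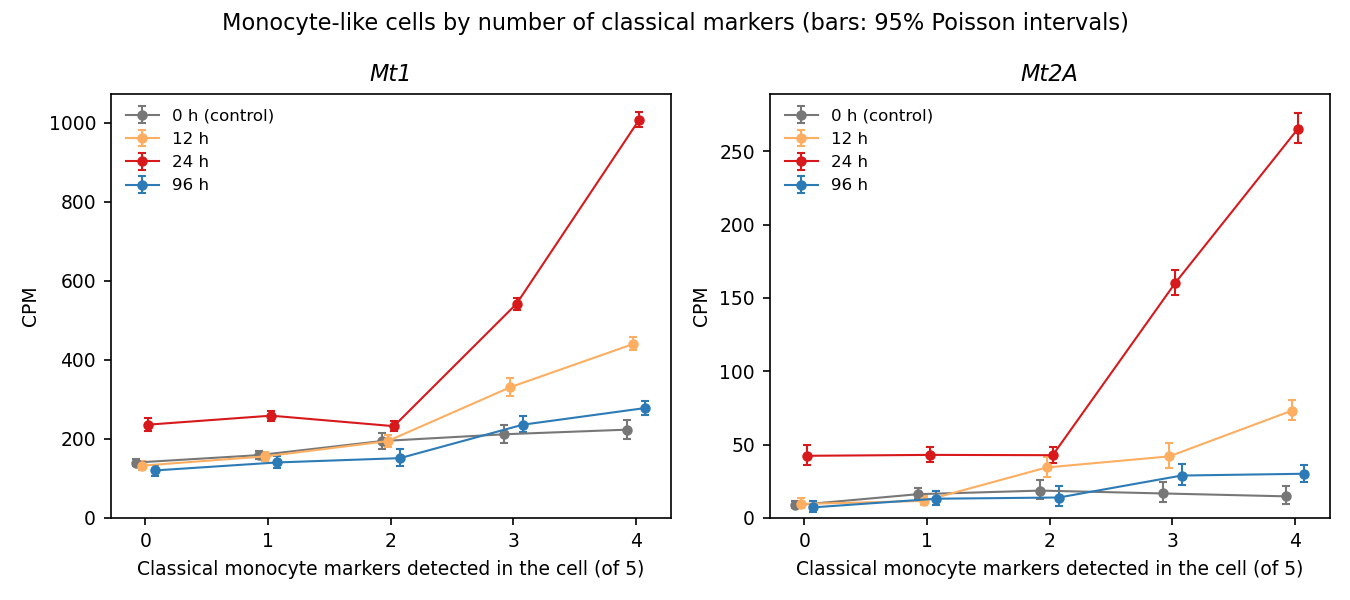
Levels of Mt1 (left) and Mt2A (right) in monocyte-like cells, in CPM with 95% Poisson intervals, against the number of classical monocyte markers found in the cell, for the 4 libraries. The 24 h lines lie within 232 to 259 CPM of Mt1 up to 2 markers and reach 1008 CPM of Mt1 and 266 CPM of Mt2A at 4.

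Different clusters of cells held the classical-high class at different times. A clustering made without the 4 genes put 368, 489, 630 and 615 of these cells at 0, 12, 24 and 96 h into 1 cluster (number 6, led by Clec10a, Rnase2 and Fcnb). At 24 h a further 955 were in another (number 8, led by Acod1, Cxcl2 and Il1b), of whose 1837 cells 92.9% came from that library. Within cluster 6 alone Mt1 was 217, 440, 1037 and 262 CPM at 0, 12, 24 and 96 h, and Mt2A was 15.3, 69.5, 265 and 30.1 CPM. The 24 h to control ratio of Mt1 in cluster 6 was 4.77, larger than over the whole class. In cluster 8 at 24 h Mt1 stood at 640 CPM (624 to 655) and Mt2A at 194 CPM (185 to 203), both under their cluster 6 levels in the same library. Classical-low cells lay mostly in cluster 3 in the control (2470 cells) and at 96 h (916 cells), and in cluster 2 at 12 h (1783 cells) and 24 h (1605 cells). Their 24 h Mt1 level was 264 CPM in cluster 2 (252 to 276) and 256 CPM in cluster 3 (212 to 306), and it was lower, at 184 CPM (166 to 204), in the 275 classical-low cells of cluster 8.

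T-like cells were divided by the coreceptor transcripts they held. Cells with Cd4 and no Cd8 had Mt1 at 66.9 CPM at 0 h, 146 at 12 h, 207 at 24 h and 108 at 96 h. Cells with Cd8 and no Cd4 had 83.3, 130, 175 and 91.4 CPM, and cells with neither had 69.3, 154, 234 and 106 CPM. The 24 h ratio to control was 3.09 in the Cd4 cells (2.39 to 4.04), 2.10 in the Cd8 cells (1.90 to 2.33) and 3.37 in those with neither (3.05 to 3.74). Cells with neither transcript include cells whose coreceptor was missed at this depth.

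RNA from other cells was present in every lymphoid class and moved with time. In B-like cells S100a8, a neutrophil and monocyte gene, was 9.45 CPM at 0 h, 637 at 12 h, 447 at 24 h and 31.3 at 96 h. Lyz2, a monocyte gene, was 517, 598, 1068 and 374 CPM there, highest in the same library as Mt1. As a share of the classical-high level of the same library, Lyz2 in B-like cells was 1.25%, 1.42%, 2.12% and 0.916% and Fn1 was 0.974%, 1.46%, 1.91% and 0.882% at 0, 12, 24 and 96 h. Mt1 in B-like cells stood at 35.3%, 23.3%, 19.9% and 27.3% of the classical-high level, and Mt2A at 6.23%, 7.88%, 3.61% and 5.53%. In T-like cells at 24 h the shares were 1.12% for Lyz2, 1.10% for Fn1, 26.1% for Mt1 and 8.11% for Mt2A. The Mt1 share lay above the Lyz2 and Fn1 shares in all 4 libraries. Mt2A in B-like cells at 24 h came closest to them, at 3.61% beside 2.12% for Lyz2. S100a8 and S100a9 stood higher beside classical-high cells than Lyz2 and Fn1 did at 24 h. S100a8 was 447 CPM in B-like, 221 in T-like and 2238 in classical-high cells, and S100a9 was 355, 180 and 1530 CPM. In both lymphoid classes these are larger shares of the classical-high level than that of Mt2A, and in B-like cells they are close to or above that of Mt1. The part of RNA from other cells in the lymphoid Mt1 and Mt2A levels was not tested. All 9 monocyte markers were detected in every T-like, B-like and NK-like sum, at 322 to 702 CPM summed in T-like, 574 to 1358 CPM in B-like and 509 to 893 CPM in NK-like cells. Of the 13 neutrophil markers, 10 to 13 were detected in B-like cells, at 22.4 to 1094 CPM summed. In classical-high cells the 13 neutrophil markers summed to 875, 29540, 4201 and 1868 CPM at 0, 12, 24 and 96 h, with Ltf at 0 in all 4. Most of the 12 h and 24 h sums came from S100a8 (17550 and 2238 CPM) and S100a9 (11410 and 1530 CPM). The number of neutrophil markers was not capped in monocyte-like cells, and their part in the Mt1 and Mt2A levels was not tested. The Mt1 and Mt2A levels of neutrophil-like cells, given above, rest on 53 cells at 12 h and 116 at 24 h.

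Slc30a1, the zinc exporter, did not follow the metallothioneins in classical-high cells. In classical-high cells it stood at 18.4 CPM at 0 h (57 UMIs), 9.36 at 12 h (88 UMIs), 11.9 at 24 h (223 UMIs) and 19.1 at 96 h (113 UMIs). The ratio to control was 0.509 at 12 h (0.361 to 0.724), 0.649 at 24 h (0.483 to 0.884) and 1.04 at 96 h (0.750 to 1.46). The first of these rests on 57 control UMIs and was 0.795 after thinning every cell to 2000 UMIs. In classical-low cells the levels were 15.2, 11.8, 9.70 and 17.5 CPM and the ratios 0.775 (0.597 to 1.002), 0.638 (0.490 to 0.826) and 1.15 (0.877 to 1.50). Under the stricter cell filter the classical-low ratio at 24 h turned to 1.18, above control, and that at 96 h was 1.67. At 24 h classical-high cells held more Mt1 and less Slc30a1 than control. The 96 h level of Slc30a1 was 1.60 times the 24 h level in classical-high cells (1.27 to 2.02) and 1.80 times in classical-low cells (1.33 to 2.44).

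Lymphoid cells held less of the exporter. Slc30a1 was 4.94 to 7.02 CPM in T-like cells, 2.89 to 4.62 CPM in B-like cells and 4.54 to 8.71 CPM in NK-like cells over the 4 libraries, under the minimum of 10 CPM throughout. In the control the classical-high level was 6.36 times the B-like level (4.02 to 10.3), and at 12 h 2.03 times (1.43 to 2.90). The 2 monocyte classes did not differ beyond counting error in the control, with a ratio of 1.21 (0.878 to 1.64).

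Slc39a14, the importer, was near the floor everywhere and reached 10 CPM in no class. Its highest level in any class of at least 50 cells, apart from neutrophil-like cells, was 2.74 CPM in NK-like cells at 12 h (10 UMIs). Classical-high cells held 3, 23, 41 and 7 of its UMIs at 0, 12, 24 and 96 h, or 0.968, 2.45, 2.19 and 1.18 CPM. Classical-low cells held 2, 1, 0 and 0 UMIs in 2892, 2039, 2031 and 1087 cells, and with the limit set at 3 cells the counts of 0 allow a share of cells with a UMI of up to 0.148% at 24 h and 0.276% at 96 h. T-like cells had 2.10, 2.55, 2.47 and 1.50 CPM at those times. Its ratios to control had intervals that include 1 in every class but B-like cells at 12 h, where 18 UMIs stood against 4 in control (3.99 times, 1.32 to 16.2), at 1.54 CPM. Elsewhere a difference from control was not detectable at this depth. Between times, the T-like level at 96 h was 0.608 times that at 24 h (0.389 to 0.958).

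**Figure D5:**
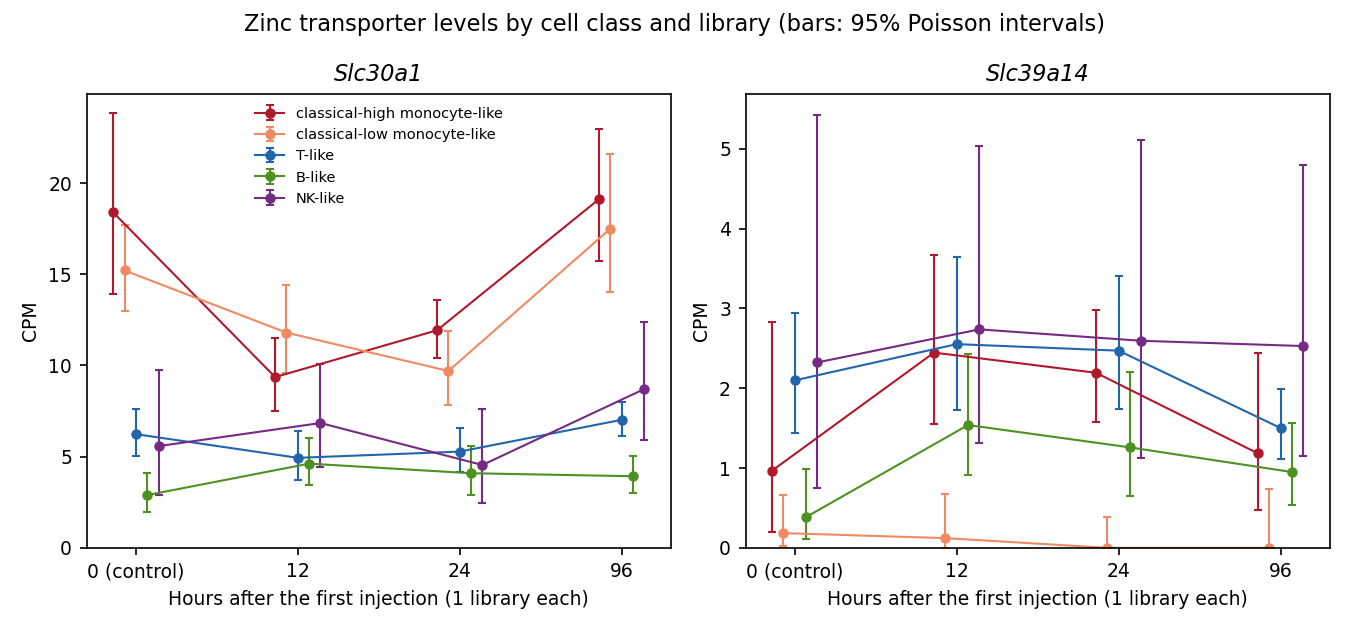
Levels of the zinc exporter gene Slc30a1 (left) and the importer gene Slc39a14 (right) in CPM with 95% Poisson intervals, against hours after the first injection, in 5 cell classes. Slc30a1 is lowest at 12 h in classical-high cells (9.36 CPM) and at 24 h in classical-low cells (9.70 CPM), and Slc39a14 stays under 3 CPM in every class.

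The other metallothioneins were almost silent. Of 6 further names looked for, Mt3 and Mt1m are in the matrices. Mt3, known for its role in brain, had 5, 8, 2 and 11 UMIs in all deposited cells at 0, 12, 24 and 96 h. Mt1m had 3, 2, 20 and 1, and 12 of the 20 UMIs at 24 h were in classical-high cells, the class richest in Mt1.

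In classical-high cells at 24 h the rest of the zinc transporter families moved less than Mt1 and Mt2A, which did not hold for all of them at 12 h. Of 8 further SLC30 exporters in the matrices, 3 were measured in classical-high cells at 24 h and 0 were past 2-fold, with a median log2 ratio of -0.10, where that of all genes was -0.05. The largest ratio there was that of Slc30a7 (1.04) and the smallest that of Slc30a5 (0.933), both of which load zinc into the early secretory pathway. At 12 h, 4 exporters were measured in classical-high cells, between 1.47 times control for Slc30a6 and 1.64 times for Slc30a5, with a median log2 ratio of 0.60 where that of all genes was 0.10. Of 11 further SLC39 importers in the matrices, 7 were measured in classical-high cells at 24 h. Of these, 1 fell short of control by 2-fold or more and 0 exceeded it by 2-fold, where 3.14% and 2.87% of all genes measured in that class did. The lower one was Slc39a10, a plasma membrane importer, with 175 UMIs in 1643 cells at 24 h and 62 UMIs in 381 control cells, a CPM ratio of 0.468 (0.349 to 0.636). Slc39a1 had the largest importer ratio there, 1.50, and the list's median log2 ratio was -0.39. At 12 h the importers of classical-high cells lay between 0.644 times control for Slc39a10 and 1.73 times for Slc39a7 (1.48 to 2.04). The interval of Slc39a7 overlaps that of Mt1 in the same cells (1.77 to 2.09). In T-like cells at 12 h Slc39a10 was at 1.75 times control (1.35 to 2.28), beside 1.83 times for Mt1. In classical-low cells at 24 h Slc39a10 was at 0.636 times control (0.487 to 0.826), and in B-like cells at 0.705 times (0.593 to 0.838).

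Genes of the metal and oxidative stress response were compared in the same way. Of 10 in the matrices, 9 were measured in classical-high cells, and 2 were at least 2-fold higher than control at 12 h and at 24 h alike, where 7.81% and 2.87% of all genes measured in that class were (4.81% were 2-fold lower at 12 h). At 24 h the largest was Sod2, the mitochondrial manganese superoxide dismutase, at 1803 CPM in the AP library and 363 CPM in control (4.97 times, 4.68 to 5.28), and the smallest was Gclc, a subunit of the glutathione-making ligase, at 0.639 times. At 12 h the largest was Selenoh, a selenoprotein, at 343 CPM in the AP library and 134 CPM in control (2.57 times, 2.32 to 2.85), and the smallest Nfe2l2, which encodes NRF2, at 0.737 times. The median log2 ratio of the list in classical-high cells was 0.73 at 12 h and 0.31 at 24 h. Of 10 iron and copper transport genes in the matrices, the largest ratio in NK-like cells was that of Slc11a2, the divalent metal transporter DMT1, at 12 h (2.18 times, 1.36 to 3.62) and 96 h (2.13 times, 1.33 to 3.55), where 1.92% and 1.23% of all genes measured in those cells were at least 2-fold higher. At 24 h it was at 1.09 times control there (0.630 to 1.93). Its counts there were 85 UMIs at 12 h, 36 at 24 h, 81 at 96 h and 23 in control. At 24 h the list's median log2 ratio in classical-high cells was 0.35, with Slc11a2 largest at 1.72 times and the copper pump gene Atp7a smallest at 0.671 times.

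Genes of the signals known to raise metallothioneins split in their direction. Fkbp5, a cochaperone gene that glucocorticoids induce, had the largest ratio of its list at 24 h in 4 of the 5 classes. At 24 h it stood at 103 CPM in AP and 16.8 CPM in control in classical-high cells (6.17 times, 4.68 to 8.29), and at 131 and 7.93 CPM in classical-low cells (16.5 times, 13.2 to 20.7). It was 3.39 times control in T-like (3.04 to 3.78), 3.01 times in B-like (2.43 to 3.76) and 3.27 times in NK-like cells (2.65 to 4.08). Tsc22d3 and Per1, which glucocorticoids also induce, were not higher with it in these cells. In classical-high cells at 24 h Tsc22d3 was at 0.568 times control (0.537 to 0.601) and Per1 at 0.464 times (0.310 to 0.708), and Tsc22d3 was the smallest ratio of the list in the other 4 classes, at 0.746 to 0.914 times. Zbtb16, a further glucocorticoid-induced gene of the list, was higher in classical-low cells at 24 h, at 17.8 CPM in AP and 5.99 CPM in control (2.96 times, 2.21 to 4.002). Socs3, a feedback inhibitor of cytokine signalling through STAT3, was the largest in T-like cells, at 25.5 CPM at 24 h and 3.18 CPM in control (8.00 times, 5.95 to 11.0). Of the 8 genes of this list in the matrices, 5 were measured in classical-high cells at 24 h. Their median log2 ratio was 0.21, with Fkbp5 past 2-fold upwards and Per1 past 2-fold downwards, where 2.87% and 3.14% of all genes measured in that class were. The part of these signals in the Mt1 and Mt2A levels was not tested.

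The genes whose levels followed these 4 most closely were ranked by Pearson's r of log2(CPM + 1) over 22 sums of a class in a library with at least 50 cells, among 3876 genes. These sums share their libraries, depths and cell types, so the correlations are given as a description. For Mt1 the nearest were Mt2A (0.909), Psmg3 (0.812), Cst7 (0.798), Mrpl27 (0.791) and Sar1b (0.775). For Mt2A they were Mt1, Mrpl27 (0.863), Cd14 (0.857), P4hb (0.835) and Qars (0.823). Cd14 is also a marker of the monocyte split, so part of its r can follow from that split. For Slc30a1 they were Itm2c (0.901), Zfp703 (0.895), St3gal4 (0.894), Itm2b (0.892) and Rassf3 (0.891), and neither metallothionein was among them. For Slc39a14, whose counts are sparse, they were Plp2 (0.940), Cuedc1 (0.827), Arid5a (0.803), Mcat (0.789) and Sema4a (0.783). Over all cells used, whatever their class, Mt1 stood at 117, 204, 389 and 116 CPM and Slc30a1 at 8.82, 7.44, 7.95 and 8.55 CPM at 0, 12, 24 and 96 h, figures that also move with the mix of cells, since classical-high cells made up 3.34%, 7.64%, 15.1% and 4.88% of the cells used.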

How the data were processed

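The authors deposited 1 matrix of UMI counts per library, with gene and barcode lists; the submitters' processing notes name Cell Ranger, Seurat and the build mm10, with versions not given in the sources used here. Deposited cells held no fewer than 301 genes and up to 15.0% mitochondrial UMIs. A further limit of 200 detected genes as a minimum and 10% mitochondrial UMIs as a maximum was applied, and doublets predicted by Scrublet in scanpy 1.11.5 were removed (663, 563, 463 and 632 cells). Cell classes came from markers: at least 4 for T-like and NK-like, 3 for B-like and 5 for monocyte-like and neutrophil-like cells, with caps on markers of other lineages, save that neutrophil markers were not capped in monocyte-like cells. Of the markers of the monocyte split, 1 is not reported here by name. The thresholds and the monocyte split were set after seeing the data, and the genes, lists and markers were chosen with earlier results of these data known. UMIs were summed per class and library. CPM have exact Poisson intervals, shares exact Clopper-Pearson intervals and ratios exact conditional binomial intervals (scipy 1.17.1), at 95%. The limit given for a count of 0 is 3 counts of its total. The ratio calculation was tested on simulated data. Named list genes are those with the largest or smallest ratio of their list in a class and time; Tsc22d3 in classical-high cells, Fkbp5 in T-like cells, Zbtb16 and Slc11a2 at 24 h in NK-like cells were added after their values were seen. Clusters used Leiden (leidenalg 0.10.2) without the 4 genes. Alternatives covered filters, doublets, gates, clusters, scaling, summing and depth.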

Additional observations from a re-analysis of the deposited data

Results flagged for a closer look

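Mt1 went opposite ways between cell classes at 96 h. In T-like cells the 96 h library stood at 1.29 times control (1.21 to 1.38), with 98.9 CPM at 96 h and 76.4 CPM in control, and in classical-high monocyte-like cells at 1.21 times (1.11 to 1.33), with 263 and 217 CPM. In NK-like cells it stood at 0.775 times control (0.680 to 0.884), with 148 CPM at 96 h and 192 CPM in control, and in classical-low monocyte-like cells at 0.874 times (0.797 to 0.958), with 130 and 149 CPM. Under the stricter cell filter the classical-low ratio was 1.04, which ends its opposite direction. These results were picked out because the only AP library of that time moved in one direction in 2 classes and in the other in 2 more, with counting intervals that exclude 1. The difference was not tested, since each group is 1 library.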

How the results depend on the processing

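With 1 library per group, only counting error is known, and depth limits Slc39a14 and lymphoid Slc30a1 and Mt2A. Of 433 gene ratios recomputed under the alternatives, 402 stayed within their counting interval. Of all 433, 21 crossed 1, and for 2 of these the main interval excludes 1, both in classical-low cells under the stricter cell filter (Mt1 at 96 h, 1.04, and Slc30a1 at 24 h, 1.18). Of ratios past 2-fold, 2 crossed 1, both for Slc39a14 in classical-high cells thinned to 2000 UMIs (0.954 at 12 h, 0.464 at 24 h). Thinning also gave 0.513 for Slc30a1 in NK-like cells at 12 h, 0.512 for Slc39a14 in T-like cells at 24 h and 1.24 for Mt2A in NK-like cells at 24 h. The 24 h ratio of Mt1 in classical-high cells was 3.68, and it was 4.58 without the cluster held by 1 library and 4.77 in 1 shared cluster. In T-like cells that of Mt1 was 2.72, and it was 2.97 with median-of-ratios scaling, 3.03 as a mean over cells and 2.92 after thinning. That of Mt2A in T-like cells was 10.4 with doublets kept. Under the stricter cell filter (at least 1000 genes, at most 5% mitochondrial UMIs), which left 480 control cells, the Mt2A ratios of classical-low cells were 2.19, 5.71 and 2.12 at 12, 24 and 96 h. Stricter gates lowered some monocyte-like ratios. With 1 marker fewer of other lineages, Mt1 in classical-high cells at 12 h was 1.675 (1.93 in the main setting). In classical-low cells at 24 h that gate gave 1.49 for Mt1 (main 1.68) and 2.77 for Mt2A (main 3.54). With no marker of another lineage that Mt2A ratio was 2.45. The count of gene and class pairs past 2-fold in either direction at 12 h was 1, and it was 0 with a gate allowing no marker of another lineage. It was 2 with the milder stricter gate, clusters, median-of-ratios scaling and without the cluster held by 1 library. With no CPM minimum and 100 UMIs it was also 2. Slc30a1 in classical-high cells was past 2-fold lower under the milder gate (0.463), median-of-ratios scaling (0.472) and without that cluster (0.499). Under clusters the added pair was higher, Mt1 in classical-high cells (2.06). At 24 h the count was 7, against 1 under the stricter cell filter and 2 under the gate with no other marker. At 96 h it was 0, against 1 with no cell filter, the stricter cell filter, and no CPM minimum. The stricter cell filter and that gate left under 50 cells in most classes, which then gave no value. The milder gate and the cluster alternatives were chosen after seeing the data. The causes were not tested. No paired analysis was possible because each group is 1 library.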
